A study of Mus musculus with 2 samples.

Results

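The reads described here are small RNAs that match the mouse genome but were given no annotation class in the deposited table. A distinct read sequence was a member when it carried no class, had at least 1 genome match and reached 10 reads over both libraries together. In all, 4812 of 2344366 distinct sequences met this rule, with 116352 reads in the Ago2ADH library and 105770 in the wild type library. The members were chosen by their summed count, so their abundance over both libraries is a description and not a finding. At the minimum of 10 reads lay 565 members, and 713 unclassified genome-matching sequences lay just below it with 9 reads. The median member had 16 reads and the most abundant 7371.

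The libraries came from livers of E18.5 mouse fetuses of strain B6/129, one from animals with catalytically inactive Argonaute 2 (Ago2ADH) and one from wild type animals. Total RNA was run on a polyacrylamide gel to take the fraction of 19 to 30 nt, which was ligated to adapters, amplified and sequenced on an Illumina GA2. The labels do not say how many fetuses were pooled, whether littermates were used or which other alleles the animals carry. There was 1 library per genotype, so no value below has a replicate check and differences between animals, dissections and library preparations cannot be told apart from the genotype.

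The Ago2ADH library held 7046197 reads and the wild type library 7599870. Fragments of Ago2 mRNA, listed under the older symbol Eif2c2, had 318 reads in Ago2ADH and 229 in wild type, which does not test a change of the catalytic residues. Reads of miR-451, whose maturation needs Argonaute 2 slicing, had 5421 counts in Ago2ADH and 327786 in wild type. Values are given as reads per 1000000 reads of the library (RPM), and ratios as Ago2ADH over wild type with an exact 95% interval for counting error only. The words rose and fell are kept for a ratio of at least 2, or at most 0.5, whose interval excludes 1.

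Mitochondria carry their own small circular genome, which is transcribed from both strands into long precursors. Transfer RNAs lie between the rRNAs and mRNAs in these precursors and are cut out of them, and their 3′ ends are then completed with an untemplated CCA. Pieces of tRNAs and of other structured RNAs are a regular part of small RNA libraries. The nuclear genome holds copies of parts of the mitochondrial genome, so that a mitochondrial read may match more than 1 place.

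The tRNA genes that carry most of the findings are printed below in full with their most abundant read in capitals, to show which side of the molecule the reads come from. Sequences are 5′ to 3′ as DNA, from the GENCODE M21 transcripts (GRCm38).
mt-Tm (tRNA-Met, chrM:3845-3913, plus strand): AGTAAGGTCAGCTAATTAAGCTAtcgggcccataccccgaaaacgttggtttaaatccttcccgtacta
mt-Tf (tRNA-Phe, chrM:1-68, plus strand): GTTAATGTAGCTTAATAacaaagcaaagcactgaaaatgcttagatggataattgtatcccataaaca
mt-Ts2 (tRNA-Ser, chrM:11613-11671, plus strand): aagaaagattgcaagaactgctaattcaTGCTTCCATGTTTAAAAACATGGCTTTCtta
mt-Ta (tRNA-Ala, chrM:5018-5086, minus strand): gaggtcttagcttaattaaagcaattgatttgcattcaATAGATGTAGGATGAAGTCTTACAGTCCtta
mt-Tp (tRNA-Pro, chrM:15356-15422, minus strand): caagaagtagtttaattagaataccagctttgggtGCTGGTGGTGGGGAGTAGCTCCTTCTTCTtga
mt-Tk (tRNA-Lys, chrM:7700-7764, plus strand): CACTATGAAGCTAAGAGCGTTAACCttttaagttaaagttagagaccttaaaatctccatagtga
The read of mt-Tm begins at base 1 and ends at base 23, with 2822 reads in Ago2ADH and 4549 in wild type. That of mt-Ts2 covers bases 29 to 56, with 324 and 71 reads in Ago2ADH and wild type. The mt-Ta read covers bases 39 to 66 and had 270 reads in Ago2ADH and 77 in wild type.

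Most of the unclassified reads were mitochondrial, and as a set they stood higher in Ago2ADH. The members made up 1.65% of all Ago2ADH reads (interval 1.64 to 1.66) and 1.39% of wild type reads (1.38 to 1.40), a ratio of 1.19 (1.18 to 1.20). Of the 4812 members, 822 rose and 170 fell, which is 17.1% and 3.53% of them. Over all 25942 genome-matching sequences of 10 or more reads, 9.66% rose and 8.55% fell. Of the 289 members with 100 or more reads, 60 rose (20.8%) and 13 fell (4.5%), while of all 3541 genome-matching sequences of that depth 8.56% rose and 11% fell. The median log2 ratio of the members was 0.50, with quartiles at -0.22 and 1.19, beside 0.11 over all those sequences and -0.02 over the 21130 of other classes. In Ago2ADH 11 members had no read, and in wild type 36 had none. Such members have no finite ratio, and a count of 0 allows up to 0.426 RPM in Ago2ADH and 0.395 RPM in wild type.

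An exact match to the annotated mitochondrial genome was found for 3466 members, 72.0% of them. They had 82769 reads in Ago2ADH and 70312 in wild type, a ratio of 1.27 (1.26 to 1.28). Their median log2 ratio was 0.64, and 720 rose (20.8%) while 54 fell (1.56%). Over all genome-matching sequences of 10 or more reads these shares were 9.66% and 8.55%. The other 1346 members had 33583 and 35458 reads in Ago2ADH and wild type, a ratio of 1.02 (1.01 to 1.04) with a median log2 ratio of -0.05. Of these, 102 rose (7.58%) and 116 fell (8.62%). The excess of rising sequences thus lay with the reads placed on mitochondrial genes, and both directions were about equally frequent among the rest. Mitochondrial sequence outside the annotated genes was not searched, so the rest may hold some reads of it.

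**Figure D1:**
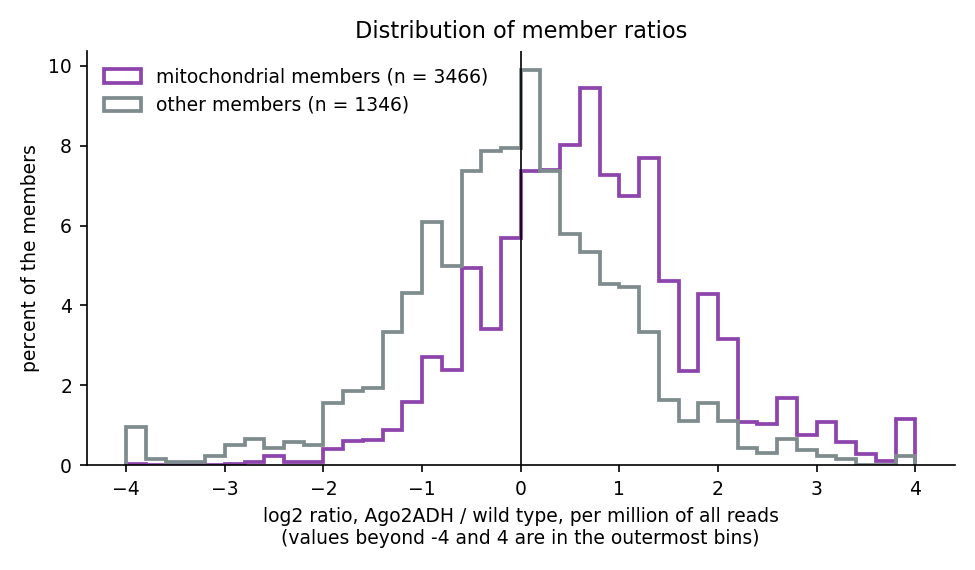
Distribution of the log2 ratio (Ago2ADH over wild type, in RPM, 0.5 added to each count) for 3466 mitochondrial and 1346 other members, as a percentage of each set. The mitochondrial curve is centred near its median of 0.64 and the other near -0.05.

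Neighbouring members are overlapping pieces of the same RNA and do not count as separate observations. Joined by a shared run of at least 15 nt, they formed 670 families, 272 of them with a single member. The 211 families of 100 or more reads held 93.3% of the member reads. Among the 118 mitochondrial families of that size, 23 rose (19.5%) and 1 fell (0.847%), and 91 lay above a ratio of 1 beyond counting error against 4 below. Among the 93 other families, 2 rose (2.15%) and 4 fell (4.3%), with 26 above and 22 below. The median log2 ratio was 0.66 for the mitochondrial families and -0.03 for the others.

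**Figure D2:**
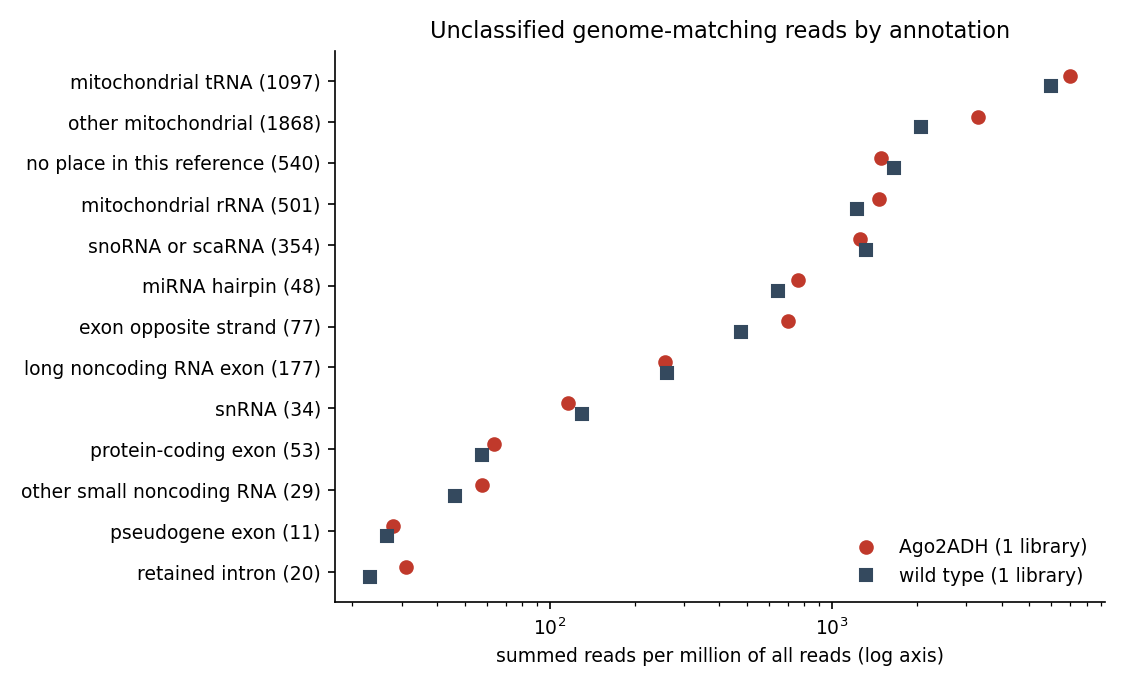
Summed reads in RPM (log axis) of each annotation group, with the number of members in brackets, for groups of 100 or more reads (red circles, Ago2ADH; blue squares, wild type; 1 library each). Mitochondrial tRNA was the largest group in both libraries, and the widest gap among the larger groups was that of other mitochondrial reads.

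Mitochondrial tRNAs, the adaptors of mitochondrial translation, gave the most reads of any group. Their 1097 members had 49156 reads in Ago2ADH and 45307 in wild type, a ratio of 1.17 (1.16 to 1.19). Members were found on 15 of the 22 tRNA genes. The other 7, mt-Td, mt-Th, mt-Tn, mt-Tq, mt-Ts1, mt-Tw and mt-Ty, had no member, which does not speak to their reads outside the members. Of the 15, 13 lay above a ratio of 1 and 2 below it beyond counting error, and 4 rose.

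Among the tRNA genes, the largest rise was that of mt-Ts2, a tRNA-Ser. Its 54 members had 2345 reads in Ago2ADH and 531 in wild type, a ratio of 4.76 (4.33 to 5.24). Of these members 36 rose (66.7%) and none fell, beside 9.66% and 8.55% over all genome-matching sequences of 10 or more reads. Reads of mt-Ts2 started mostly at bases 29 and 30, which took 42.1% and 28.9% of them in Ago2ADH against 35.6% and 21.2% in wild type. They ended mostly 2 to 6 bases before the last encoded base, most often at base 57 in Ago2ADH and at base 56 in wild type. Internal pieces had 2279 reads in Ago2ADH and 454 in wild type (5.41, interval 4.89 to 6.001). Pieces at or over an end of the gene had 66 and 77 (0.92, interval 0.66 to 1.30), 2.81% of the mt-Ts2 reads in Ago2ADH and 14.501% in wild type. Among the members, the rise was thus that of the internal pieces. Reads of mt-Ts2 that end in the untemplated CCA match no genome place and are not members. They numbered 29 in Ago2ADH and 6 in wild type (5.21, interval 2.13 to 15.4), so pieces at the completed 3′ end were higher too.

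The tRNA-Ala, mt-Ta, rose as well, with 2813 reads in Ago2ADH and 977 in wild type (ratio 3.11, interval 2.89 to 3.34). All of its 74 members lay beyond the middle of the molecule, and 35 of them rose (47.3%), beside 9.66% over all those sequences. mt-Tr (tRNA-Arg) had 621 and 289 reads in Ago2ADH and wild type, a ratio of 2.32 (2.01 to 2.67). mt-Tl2 (tRNA-Leu) had 251 and 129 reads, a ratio of 2.10 (1.69 to 2.62). These 2 values rest on far fewer reads than that of mt-Ta, and mt-Tl2 no longer met the limit when scaled to miRNA reads (1.94).

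The tRNA-Met, mt-Tm, differed from these. Among the tRNA genes with members, mt-Tm had the most member reads per length, at 32348 RPM per kb in Ago2ADH and 46860 RPM per kb in wild type. Mitochondrial reads of other classes are not counted in this rank. Its 114 members had 15727 reads in Ago2ADH and 24573 in wild type, a ratio of 0.69 (0.68 to 0.70), which does not reach the limit for a fall. The 5 members with most reads were all pieces of it that begin at base 1 and end at bases 20, 22, 23, 25 or 31. Together they took 8.50% of the member reads in Ago2ADH and 15.2% in wild type. For the piece ending at base 23 the level was 400.5 RPM in Ago2ADH and 598.6 RPM in wild type, and for the piece ending at base 31 it was 213.02 and 280.3 RPM.

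Reads that start at base 1 were 89.0% of mt-Tm reads in Ago2ADH and 94.2% in wild type, with 13999 and 23154 reads and a ratio of 0.65 (0.64 to 0.67). A small group of internal mt-Tm reads went the other way. The 12 members that start at bases 18 to 22 had 615 reads in Ago2ADH and 86 in wild type, a ratio of 7.71 (6.15 to 9.78). This window was chosen after its values were seen. Within a single tRNA, pieces with different starts thus had ratios on both sides of 1.

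**Figure D3:**
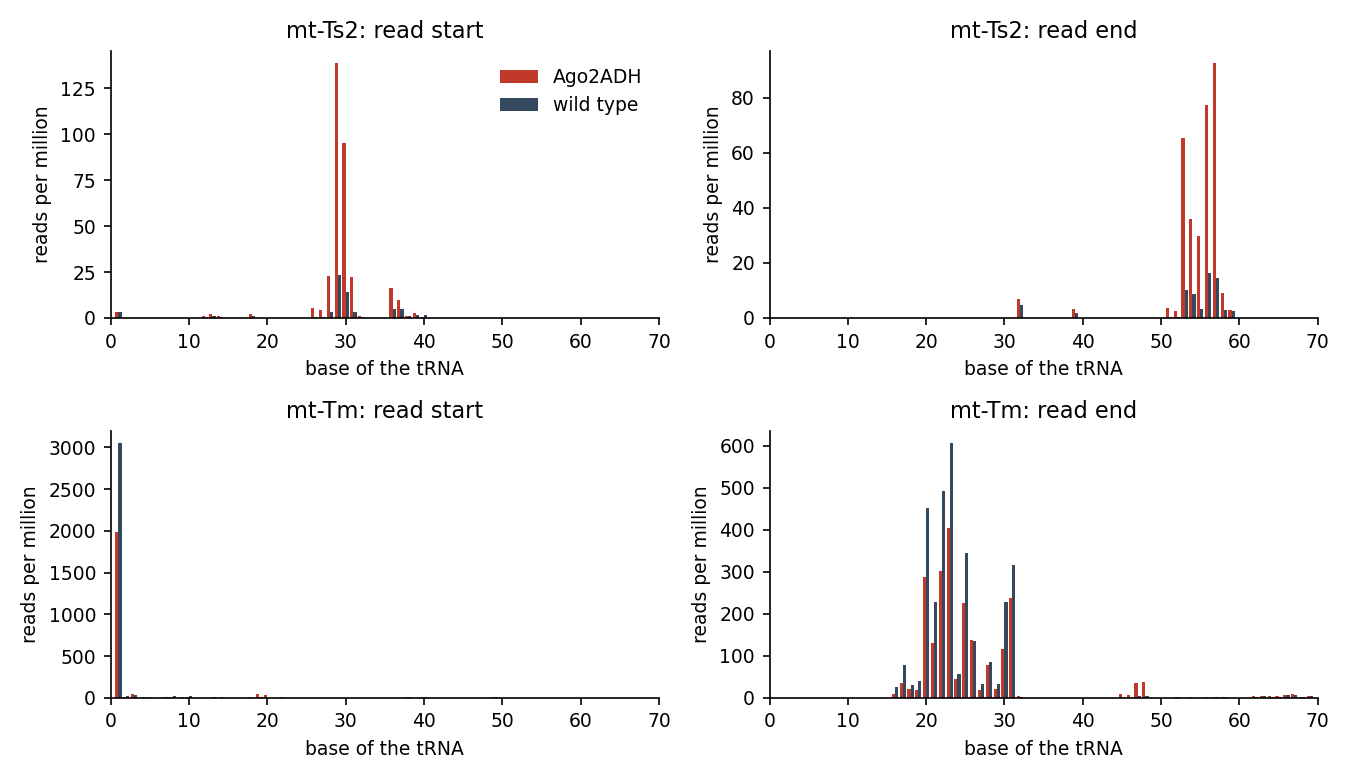
Reads, in RPM, by the base of the tRNA at which they start (left) and end (right), for mt-Ts2 (top) and mt-Tm (bottom), in Ago2ADH (red) and wild type (blue). Reads of mt-Ts2 start mostly at bases 29 and 30 and are higher in Ago2ADH, whereas those of mt-Tm start mostly at base 1 and are lower.

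Without mt-Tm, the 983 tRNA members of the other genes had 33429 reads in Ago2ADH and 20734 in wild type, a ratio of 1.74 (1.71 to 1.77). Reads of these genes that start at base 1 had 6405 and 5643 counts in Ago2ADH and wild type, a ratio of 1.22 (1.18 to 1.27). Against this sum, such reads of mt-Tg fell, with 64 and 146 counts (0.47, interval 0.35 to 0.64). Those of mt-Tf were at 0.79 (0.71 to 0.88). Internal reads had 26326 and 14464, a ratio of 1.96 (1.92 to 2.003). All 983 members were also split by side, whatever their ends. Reads whose middle lay beyond the middle of the tRNA rose as a sum, with 23088 in Ago2ADH and 12347 in wild type (ratio 2.02, interval 1.97 to 2.06). That call was lost under all 4 other scalings, with 1.87 scaled to miRNA reads. Those before the middle had 10341 and 8387, a ratio of 1.33 (1.29 to 1.37). The tRNA reads with the higher ratio were thus mainly those from the 3′ side.

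This order held within most single tRNAs. In 8 of the 11 tRNAs with 100 or more reads on each side of the middle, the ratio was larger on the 3′ side. For mt-Tk (tRNA-Lys), reads of the 3′ side had 1843 counts in Ago2ADH and 645 in wild type (ratio 3.08, interval 2.82 to 3.38), and reads of the 5′ side 2621 and 1962 (ratio 1.44, interval 1.36 to 1.53). For mt-Tp (tRNA-Pro), the 3′ side had 4817 and 2418 (2.15, interval 2.05 to 2.26; 1.99 scaled to miRNA reads) and the 5′ side 2249 and 2074 (1.17, interval 1.10 to 1.24). The order was the opposite for mt-Tr and mt-Tv, and for mt-Ti, whose 3′ side had 39 and 68 reads in Ago2ADH and wild type.

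Of the remaining tRNAs, mt-Te (tRNA-Glu) had 7290 reads in Ago2ADH and 4639 in wild type, a ratio of 1.69 (1.63 to 1.76). mt-Tt (tRNA-Thr) had 267 reads in Ago2ADH and 192 in wild type, with an interval of the ratio of 1.24 to 1.82. The ratios were 1.46 for mt-Tg, 1.43 for mt-Tc, 1.32 for mt-Ti and 1.15 for mt-Tv. That of mt-Tl1 was 1.87 (1.63 to 2.16), from 5 members with 551 reads in Ago2ADH and 317 in wild type. Mitochondrial reads of other classes are not part of these values. mt-Tf (tRNA-Phe) was below 1, at 0.85 (0.77 to 0.93), with 764 reads in Ago2ADH and 974 in wild type. Its value turned to 1.27 (1.02 to 1.59) when members with more than 1 genome match were left out. Its 17-nt read from base 1, in capitals in the sequence printed above, had 541 reads in Ago2ADH and 789 in wild type. All members of mt-Te, mt-Tk, mt-Tg and mt-Tr had more than 1 genome match, so their reads cannot be assigned to the mitochondrial copy alone.

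**Figure D4:**
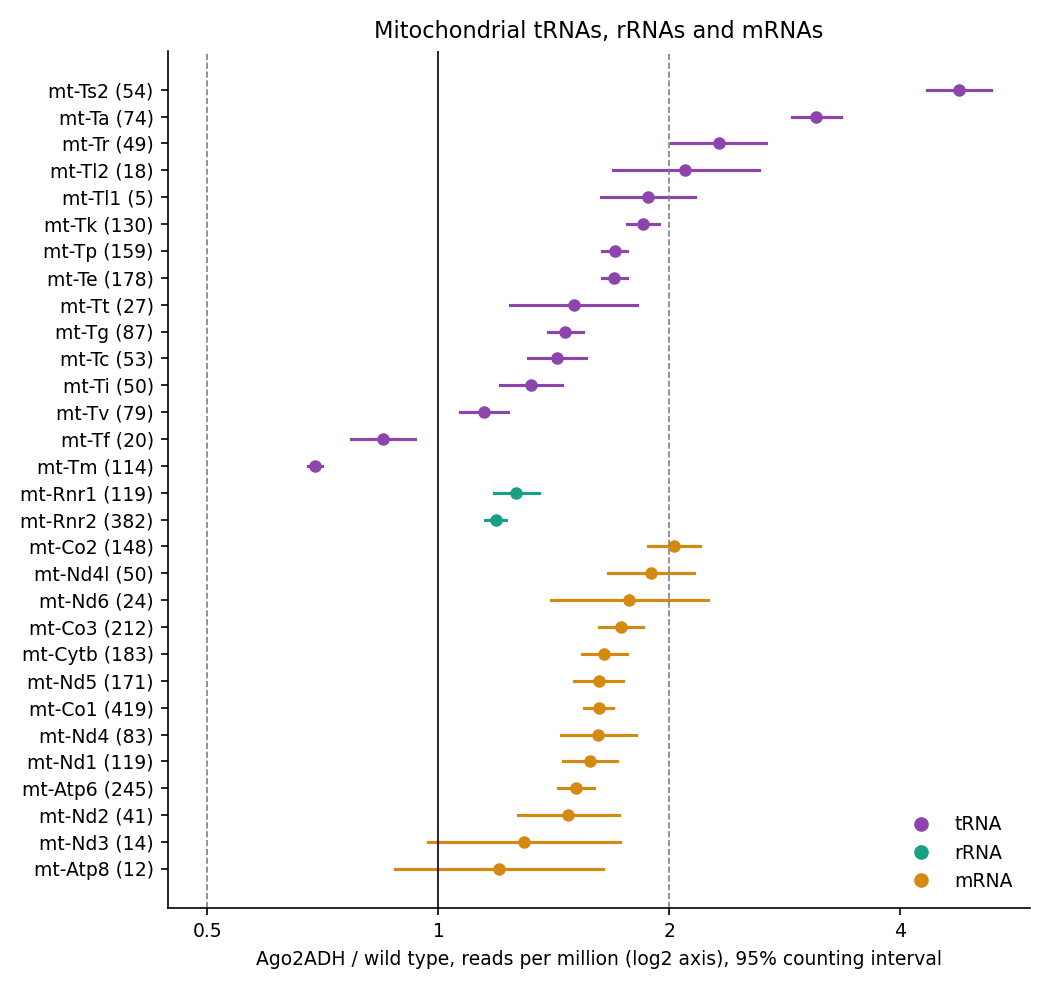
Ratio of Ago2ADH to wild type in RPM (log2 axis) with its 95% counting interval for each mitochondrial tRNA, rRNA and mRNA on its own strand, with the number of members in brackets. The solid line marks 1 and the dashed lines 0.5 and 2; mt-Tf and mt-Tm are the 2 below 1.

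Pieces of the mitochondrial mRNAs, which encode subunits of the respiratory chain and ATP synthase, had a ratio above 1 for all 13 genes, for 2 of them within counting error. Their 1721 members had 20073 reads in Ago2ADH and 13180 in wild type, a ratio of 1.64 (1.61 to 1.68). The ratio of single genes was between 1.20 for mt-Atp8 and 2.03 for mt-Co2, with a median of 1.62. For 11 genes the interval lay above 1, and for mt-Atp8 and mt-Nd3 it held 1. The cytochrome oxidase subunit mt-Co2 rose, with 1884 and 1002 reads in Ago2ADH and wild type (2.03, interval 1.88 to 2.19). That call was lost under 3 of 4 other scalings, with 1.88 scaled to miRNA reads, and all mt-Co2 members had more than 1 genome match. mt-Co1 gave the most reads, 5010 in Ago2ADH and 3342 in wild type (1.62, interval 1.55 to 1.69).

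Some short stretches of the mRNAs went further than their genes as a whole. Of the 75 families of other mitochondrial reads with 100 or more reads, 17 rose and 0 fell, beside 25 and 5 of all 211 families. Those named here were picked for the largest ratios, so a ratio above that of the gene follows from the choice. Single families rose in mt-Nd4l (89 reads in Ago2ADH and 26 in wild type, ratio 3.69), mt-Co1 (152 and 47, ratio 3.49) and mt-Co3 (147 and 48, ratio 3.30). Further ones were in mt-Cytb (262 and 95, ratio 2.97) and mt-Nd5 (112 and 41, ratio 2.95). These are sums of few reads, and the interval of the mt-Nd4l family ran from 2.36 to 5.96.

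Summed reads of the mitochondrial rRNAs changed less. mt-Rnr2, the large subunit rRNA, had 8537 reads in Ago2ADH and 7753 in wild type (1.19, interval 1.15 to 1.22). mt-Rnr1, the small subunit rRNA, had 1828 and 1560 (1.26, interval 1.18 to 1.35). Per length, mt-Rnr2 reached 765.9 RPM per kb in Ago2ADH and 644.8 RPM per kb in wild type. The most abundant family of mt-Rnr2 begins at its first base and had 3523 and 3998 reads in Ago2ADH and wild type, a ratio of 0.95 (0.91 to 0.99). Its top read was actaatcctagccctagcccta (chrM:1094-1115, GRCm38, plus strand), with 688 and 781 reads. With single-match members alone, which leave this read out, mt-Rnr2 was at 1.41 (1.36 to 1.47) and mt-Rnr1 at 1.25 (1.15 to 1.36). One mt-Rnr1 family fell, with 49 reads in Ago2ADH and 115 in wild type (0.46, interval 0.32 to 0.65).

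Members from the strand opposite to a mitochondrial gene were also found. Opposite to tRNA genes, 71 members had 2515 reads in Ago2ADH and 2020 in wild type (1.34, interval 1.27 to 1.42), and opposite to mRNAs 76 members had 660 and 492 (1.45, interval 1.29 to 1.63). Most of the reads opposite to tRNAs lay across mt-Tp, with 2261 in Ago2ADH and 1797 in wild type. By strand of the mitochondrial genome, the 550 members of the minus strand had 19108 and 11564 reads in Ago2ADH and wild type (1.78, interval 1.74 to 1.82). The 2916 members of the plus strand, which include mt-Tm, had 63661 and 58748 (1.17, interval 1.16 to 1.18).

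Length differed between the libraries among these reads. Members were 15 to 33 nt long. Those of 25 to 30 nt took 33.1% of the member reads in Ago2ADH and 26.0% in wild type, and had a ratio of 1.51 (1.49 to 1.53). Those of 15 to 18 nt had a ratio of 0.93, those of 19 to 21 nt 1.08, those of 22 nt 1.06, those of 23 to 24 nt 1.20 and those of 31 to 33 nt 1.14. Reads of 22 nt, the usual length of miRNAs, were 9.82% of the member reads in Ago2ADH and 10.96% in wild type. In the other classes without miRNAs, reads of 25 to 30 nt had a ratio of 0.93 and those of 15 to 18 nt 0.92. By sequence, however, 12.8% of the 25 to 30 nt sequences of those classes rose and 4.95% fell (median log2 ratio 0.29), and 5.56% of the 15 to 18 nt sequences rose and 14.6% fell (median -0.28). The longer sequences were thus the ones that rose more often there too.

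The mitochondrial and other members differed in this as well. Mitochondrial reads of 25 to 30 nt had 31327 counts in Ago2ADH and 21131 in wild type, a ratio of 1.60 (1.57 to 1.63), and those of 22 nt were at 1.01 (0.97 to 1.04). For tRNA genes other than mt-Tm, the reads of 25 to 30 nt rose (2.11, interval 2.06 to 2.17), as did those of 23 to 24 nt (2.03, interval 1.92 to 2.14), beside 1.16 for 15 to 18 nt. Scaled to miRNA reads, both calls were lost, at 1.96 and 1.88. That of 23 to 24 nt was also lost scaled to genome-matching reads (1.96) and under median-of-ratios scaling (1.99). Summed reads of mt-Tm were below 1 in every length class, between 0.52 for 15 to 18 nt and 0.81 for 25 to 30 nt. By sequence this did not hold at 25 to 30 nt. Of the 39 mt-Tm members of that length 14 rose (35.9%) and 1 fell (2.56%), with a median log2 ratio of 0.67. Mitochondrial mRNA pieces were above 1 in every class, at 1.55 for 19 to 21 nt, 1.79 for 25 to 30 nt and 2.003 for 31 to 33 nt. Other members of 15 to 18 nt had 6247 reads in Ago2ADH and 9170 in wild type (0.73, interval 0.71 to 0.76).

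**Figure D5:**
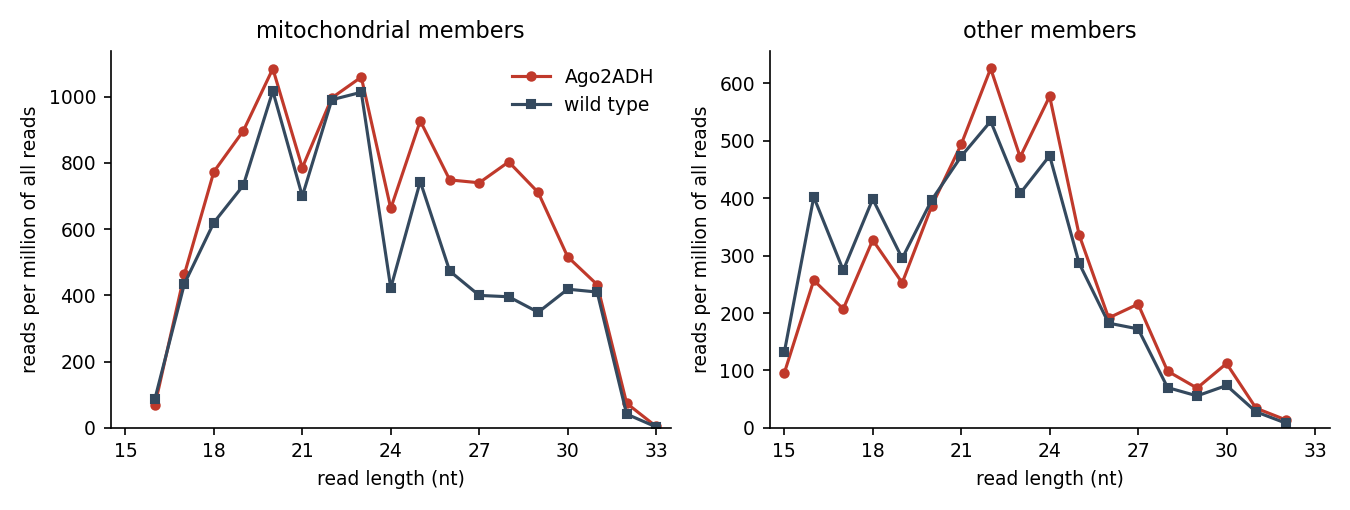
Reads, in RPM, by read length for mitochondrial members (left) and other members (right), in Ago2ADH (red) and wild type (blue). The gap between the mitochondrial curves is widest from 26 to 29 nt, and among the other members wild type is higher from 15 to 20 nt.

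The first base was A for 1888 members, U for 1253, G for 925 and C for 746. Reads with a first A were 41.1% of the member reads in Ago2ADH and 46.8% in wild type, and those with a first U 23.5% and 19.95%. Among genome-matching sequences of 10 or more reads in the other classes, miRNAs included, a first U was found in 62.9% of the Ago2ADH reads and 55.3% of the wild type reads. The difference in first A came with mt-Tm, whose main pieces begin with A. Without mt-Tm, a first A made up 33.04% in Ago2ADH and 31.9% in wild type, and a first U 26.6% and 25.4%.

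By genome matches, 2999 members had 1 match, 1803 had 2 to 5 and 10 had 6 to 8. Single-match reads were 66.2% of the member reads in Ago2ADH and 71.5% in wild type. The ratio was 1.10 (1.09 to 1.11) for 1 match and 1.41 (1.39 to 1.44) for 2 to 5. Within the mitochondrial members it was 1.16 (1.15 to 1.18) for the 1951 with a single match and 1.49 (1.46 to 1.51) for the 1515 with 2 to 5. mt-Tm took 30.2% of these single-match reads in Ago2ADH and 50.7% in wild type, at a ratio of 0.69 (0.68 to 0.71). The lower value of the single-match reads thus came with mt-Tm, and the order of the 2 values does not hold without it. With single-match members alone, mt-Ts2 (4.76), mt-Ta (3.11) and mt-Tl2 (2.14) met the limit for a rise as well, as did mt-Nd4 (2.01, interval 1.65 to 2.46) and reads opposite to mt-Ti (2.16). Scaled to miRNA reads, mt-Tl2 and the reads opposite to mt-Ti lost the call, at 1.98 and 1.998. The call of mt-Nd4 was lost under all 4 other scalings, with 1.87 scaled to miRNA reads. Of the 13 mRNAs, 6 had no single-match member: mt-Atp6, mt-Atp8, mt-Co2, mt-Co3, mt-Nd3 and mt-Nd4l.

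Outside the mitochondrial genome, members in annotated miRNA hairpins had 5336 reads in Ago2ADH and 4899 in wild type (1.17, interval 1.13 to 1.22). They were 48 members from 9 hairpins, of which 7 have an entry in the RefSeq table, and most reads came from 3 miRNAs. These are printed with the seed, bases 2 to 8, in capitals, from RefSeq (GRCm38.p6).
mmu-miR-1983 (chr13:21896930-21896950, minus strand): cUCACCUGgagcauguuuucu
mmu-miR-3072-3p (chr12:109747928-109747949, plus strand): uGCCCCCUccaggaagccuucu
mmu-miR-1839-5p (chr7:81529919-81529940, plus strand): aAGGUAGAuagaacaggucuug
No 2 of the 9 mature miRNAs matched share a seed.

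miR-1983 had 2480 reads in Ago2ADH and 2517 in wild type (1.06, interval 1.005 to 1.12), and 80.7% of them began at the annotated first base. miR-3072-3p, from the imprinted Dlk1-Dio3 region, had 1702 and 1354 reads in Ago2ADH and wild type (1.36, interval 1.26 to 1.46), all of them with the annotated first base. miR-1839-5p had 844 and 713 reads (1.28, interval 1.15 to 1.41). Thus reads of the length and start of mature miRNAs are present among the unclassified sequences, and none of these 3 met the limit for a rise. The let-7j hairpin, Mir7j, gave 33 and 41 reads. One read each ran over the end of Mir877 (39 in Ago2ADH and 33 in wild type) and of Mir16-1 (4 and 7), and one lay opposite to Mir142b (2 and 10).

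Small nucleolar RNAs guide the modification of rRNAs and snRNAs, and were the largest annotated nuclear group. Their 354 members had 8893 reads in Ago2ADH and 10065 in wild type, a ratio of 0.95 (0.93 to 0.98), with 18 rising (5.08%) and 27 falling (7.63%), both smaller shares than the 9.66% and 8.55% over all genome-matching sequences of 10 or more reads. With members of 1 place alone the ratio was 0.98 (0.95 to 1.01). Reads lay at the ends of the snoRNAs: 184 members started within 5 bases of the 5′ end, 138 ended within 5 bases of the 3′ end and 32 were internal. Of 26 snoRNA genes with 100 or more reads, 5 lay above a ratio of 1, 7 below and 14 had an interval that held 1.

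The most abundant reads of 3 of them show these ends, in GRCm38 coordinates.
Snora9 (chr11:6528141-6528165, minus strand): tagcaagcctccagcgtgcttgggt
Snord49b (chr11:62603127-62603150, plus strand): gacgacatccctagttagctgact
Gm23736 (chr12:109680802-109680825, plus strand): gaccaatgatgagatctggtggcg
The Snora9 read starts at the first base of the gene and the Snord49b read ends at its last. Snora9 had 1258 reads in Ago2ADH and 1242 in wild type (1.09, interval 1.01 to 1.18), Gm23736 1329 and 1094 (1.31, interval 1.21 to 1.42) and Snord49b 1032 and 1352 (0.82, interval 0.76 to 0.89). Snord1b fell, with 103 and 236 reads in Ago2ADH and wild type (0.47, interval 0.37 to 0.60). One family of Gm24357 fell too, with 34 and 83 reads (0.44, interval 0.29 to 0.67), while all its reads together had a ratio of 0.77 (0.58 to 1.02).

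A compact source lay opposite to the annotated strand of Gm12895 on chromosome 4 or of Gm12896: both top reads match 2 places, 1 in each gene, and cannot be assigned to either. Its 73 members had 4857 reads in Ago2ADH and 3571 in wild type (1.47, interval 1.40 to 1.53). They lay in neighbouring stretches, and the top read of each is printed at its Gm12895 place, in GRCm38.
Gm12895, first (chr4:122455326-122455349, minus strand): gggcggcgggtccaaccccgcggg
Gm12895, second (chr4:122455275-122455294, minus strand): ggtggggcggggggcccgga
The family of the first had 3263 reads in Ago2ADH and 1973 in wild type (1.78, interval 1.69 to 1.89), and that of the second 1593 and 1568 (1.10, interval 1.02 to 1.18). The ratio thus differed between the stretches.

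The other nuclear groups were small. Pieces of long noncoding RNAs came from 177 members with 1806 reads in Ago2ADH and 1989 in wild type (0.98, interval 0.92 to 1.04). Among them Gm26917 was at 1.31 (1.18 to 1.47), Rian, an imprinted transcript, at 1.77 (1.31 to 2.41) and Dancr at 0.87 (0.75 to 1.01). snRNA pieces had 820 and 988 reads in Ago2ADH and wild type (0.90, interval 0.81 to 0.98). The vault RNA Vaultrc5 had 321 and 295 (1.17, interval 0.999 to 1.38) and the Y RNA Rny1 85 and 55 (1.67, interval 1.17 to 2.38). Retained introns held 20 members with 219 reads in Ago2ADH and 176 in wild type (1.34, interval 1.10 to 1.65), and pseudogene exons 11 members with 196 and 201 (1.05, interval 0.86 to 1.29).

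Protein-coding exons held 53 members with 449 reads in Ago2ADH and 439 in wild type. Of these, 39 members belonged to the adult beta globin Hbb-bs, with 319 reads in Ago2ADH and 260 in wild type (1.32, interval 1.12 to 1.56), and 4 to albumin, with 26 and 35. No gene of the white blood cell or the endothelial and stellate list had a member.

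For 540 members no place was found in the annotated transcripts. They had 10500 reads in Ago2ADH and 12681 in wild type (0.89, interval 0.87 to 0.92), and 40.7% of them were 18 nt or shorter. They include the family with the largest rise, 249 reads in Ago2ADH and 42 in wild type (6.39, interval 4.597 to 9.09). They also include the 3 largest falls, with 78 and 352 reads (0.24), 357 and 1267 (0.30) and 31 and 103 (0.32). The top reads of these 3 were 15 or 16 nt long.

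Cell markers were read from mRNA fragments of the same table. Erythroid genes had 10685 reads in Ago2ADH and 17218 in wild type, a ratio of 0.67 (0.65 to 0.69), with 15 of 34 detected genes below 1 and 1 above beyond counting error. Hepatocyte genes had 126321 and 136269 reads (0.9998, interval 0.99 to 1.01), with 18 of 50 below and 8 above. Among the members, the erythroid list went the other way, with 324 reads in Ago2ADH and 267 in wild type (1.31, interval 1.11 to 1.54), all of globin genes. The hepatocyte list had 29 and 44 member reads (0.71, interval 0.43 to 1.16). White blood cell genes were at 0.94 (0.86 to 1.01) and endothelial and stellate genes at 0.99 (0.88 to 1.11). Nuclear genes of the respiratory chain, a list made after the data were seen, had 3741 reads in Ago2ADH and 4015 in wild type (1.005, interval 0.96 to 1.05). The part of the lower erythroid fragments in the mitochondrial ratios was not tested, and in a whole organ fewer cells of a type and less RNA per cell cannot be told apart.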

How the data were processed

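The authors deposited 1 raw read count per distinct sequence and library, with the number of genome matches, a class and a name, per the file headers. The sources used here name no aligner, genome build or trimming step. The table has 0 columns of values from other samples. Depth was 7046197 reads (Ago2ADH) and 7599870 (wild type).

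Members were placed by exact match on GENCODE M21 transcripts and on the mitochondrial genome joined from its annotated genes (15365 bases, without the control region). No whole genome was used, so introns, intergenic places and hairpin flanks planned as groups were not placed. Counts were divided by all reads of the library. Ratios have exact conditional binomial 95% intervals and shares exact Clopper-Pearson ones. They cover counting error only, since reads carry no molecular identifiers. With 1 library per genotype no test was made. Python 3.11.15 with scipy 1.17.1 and pandas 2.3.3 was used, and edgeR 4.0.16 for TMM factors only. The size rule was tested on simulated data. Median log2 ratios add 0.5 to each count.

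Families named are the 12 with most reads, up to 8 largest rises and 8 largest falls among those of 100 or more reads, and the 2 with most reads of each annotation group, besides the 10 members with most reads. Other genes were named after their values were seen. Members and lists were chosen with earlier results of these data known.

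Alternatives were other scalings, read minimums, fold limits, match numbers and lengths, and families in place of reads.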

Additional observations from a re-analysis of the deposited data

Results flagged for a closer look

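Reads of mitochondrial tRNAs that end in the untemplated CCA match the genome 0 times and so lie outside the members. They were looked at because they hold a signal that the comparisons above do not use, and they were found for all 22 tRNAs. There were 4507 such reads in Ago2ADH and 3587 in wild type (ratio 1.36, interval 1.30 to 1.42). Reads ending in CC had 2092 and 2803 counts in Ago2ADH and wild type, a ratio of 0.805 (0.76 to 0.85). CCA reads of mt-Ts2 numbered 29 in Ago2ADH and 6 in wild type (5.21, interval 2.13 to 15.4), and those of mt-Tc 144 and 74 (2.10, interval 1.58 to 2.82).

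Mitochondrial sequence was also found in classes other than the members, under names of nuclear genes and repeats. The nuclear gene Myo3a took 29623 such reads in Ago2ADH and 22486 in wild type (1.42, interval 1.40 to 1.45). The repeat name L1Md_F2 took 33481 and 28214 (1.28, interval 1.26 to 1.30). All mitochondrial reads of the table made up 3.31% of the Ago2ADH and 2.42% of the wild type reads, a ratio of 1.37 (1.36 to 1.38). With 1 library per genotype no sample could be compared with others of its group.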

How the results depend on the processing

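Over all alternatives run, more members rose than fell and their median log2 ratio stayed above 0. Scaling to miRNA reads lowered every log2 ratio by 0.11, and the median of the members to 0.39; genome-matching reads gave 0.44. Minimums of 5, 20 and 100 reads gave medians of 0.56, 0.43 and 0.34, single-match reads 0.43 and families 0.24. Members that rose numbered 444 and 60 with minimums of 20 and 100, 491 with single-match reads, 299 with reads of 20 to 24 nt and 87 as families; those that fell numbered 92, 13, 118, 47 and 38, and 113 at a 3-fold limit. The single-match counts were 16.4% and 3.93% of 2999 members. Those at a minimum of 100 were 20.8% and 4.5%, beside 8.56% and 11% over all genome-matching sequences of that depth. For the other alternatives no share over all genome-matching sequences stands beside the counts, so they describe the members alone. Families that met the size rule numbered 30, and 23 when scaled to miRNA reads. No annotation group of 100 or more reads, and no host list, met it as a whole under any alternative run. The group opposite to a miRNA hairpin, 1 member with 2 and 10 reads in Ago2ADH and wild type, lay near the limit (0.22, interval 0.02 to 1.01).

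With no minimum, a minimum of 100, and without the 10 members with most reads, members were 3.55%, 0.856% and 1.44% of all Ago2ADH reads and 2.99%, 0.817% and 1.09% of wild type reads. The 22-nt share was 8.86%, 11.3% and 7.74% in Ago2ADH and 9.46%, 13.1% and 8.11% in wild type. The first-U share was 25.4%, 21.5% and 25.5% in Ago2ADH and 23.4%, 16.3% and 24.1% in wild type. The single-match share was 71.3%, 69.8% and 61.1% in Ago2ADH and 75.5%, 77.01% and 63.6% in wild type.

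In alternatives added after the data were seen, the mitochondrial ratio of 1.27 was 1.18 scaled to miRNA reads, 1.11, 1.60 and 1.18 with reads of 20 to 24, 25 to 30 and 15 to 19 nt and 1.58 without mt-Tm. The ratio of the other members, 1.02, was 0.95 scaled to miRNA reads and 1.12, 1.22 and 0.76 at those lengths, so at 20 to 24 nt the 2 sums lay at 1.11 and 1.12. Of 38 named calls checked, some of them on the same reads, 25 were kept under all 4 scalings. Those lost are stated beside their values, apart from the CCA reads of mt-Tc and the 3′ side of mt-Tr. Scaled to miRNA reads, these were at 1.94 and 1.92. The 3′ side of mt-Tr lost the call scaled to genome-matching reads too, at 1.995. No paired analysis was possible because each genotype has 1 library and the labels give no shared numbers. A member of 10 reads meets the size rule only at an uneven split, so depth limits the calls of rare reads.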
